A study of Mus musculus with 20 samples.

Results

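The 41 genes described here encode the enzymes and regulators of cholesterol and fatty acid synthesis, together with the liver X receptors (LXR) and their targets in sterol export. They were chosen by name and by role. A probe counted for a gene where it was no control spot and its transcript accession mapped to the gene's symbol. All 41 had a probe and all 41 were tested, among 24250 genes and transcripts in all. By role they comprise 7 genes of the mevalonate pathway, 11 genes of the squalene and sterol ring enzymes, 5 genes that control the sterol regulatory element binding proteins (SREBP), 1 sterol carrier, 12 genes of fatty acid synthesis and 5 genes of LXR and efflux.

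The cells were mouse embryonic fibroblasts, which are cultured connective tissue cells, from mice with a Balb/c background, kept in medium with foetal bovine serum, glutamax and uridine. Treated cells were exposed to 150 µM actinonin for 6, 24, 48 or 72 h, and control cells were given ethanol, the carrier, at 3 µl per ml. The drug is an antibiotic that inhibits peptide deformylase, an enzyme that acts on newly made proteins in bacteria and in mitochondria. There were 5 groups with 4 independent samples apiece, and every sample was a pool of 4 plates. In each group 2 samples carried Cy3 and 2 Cy5, and the 20 samples filled both channels of 10 arrays. The labels give the carrier a time of 0 h and no harvest time, so time in culture and actinonin cannot be told apart.

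Arrays 1 and 2 lay on slide 1 and held 2 carrier samples and 2 samples of 6 h, while the other 8 arrays lay on slide 2. The 24 h and 72 h samples shared 4 arrays with each other, and the 48 h samples shared arrays with carrier or 6 h samples. Of all spots, 50.8% to 58.7% rose well above background in 18 samples. In the other 2, a carrier and a 48 h sample on the brightest array, it was 66.4% and 70.5%. All 11 fibroblast markers had signal. Their summed level ranged over 993400 to 1177800 in carrier samples, 881360 to 1026900 at 6 h, 741540 to 792930 at 24 h, 577120 to 716230 at 48 h and 747410 to 832190 at 72 h, and its part in the results below was not tested. Of 7 adipocyte markers, Adipoq, Plin1 and Cidec were not well above background in enough samples to be kept. The other 4 summed to 1956 to 2186 in carrier samples, 2494 to 2784 at 6 h, 1982 to 2040 at 24 h, 1946 to 2088 at 48 h and 1480 to 1603 at 72 h.

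Cells make cholesterol from acetyl-CoA through mevalonate, isoprenoids, squalene and a series of sterol rings. When membranes are short of sterol, the escort protein SCAP carries SREBP precursors from the endoplasmic reticulum to the Golgi, where proteases release the active factor, and INSIG proteins hold the complex back when sterol is plentiful. SREBP factors raise transcription of the sterol and fatty acid enzymes, while LXR receptors bind oxidised sterols and raise transcription of export pumps.

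Promoter sequences bear on these regulators, so the windows of 250 bases before to 50 bases after each annotated start were read from RefSeq (GRCm38.p6). Of the 41 genes, 33 matched, with 42 windows. Abcg1, Fads1, Fdft1, Fdps, Scd1, Scd2, Sqle and Stard4 had none. Both strands were searched for TCACNCCA, the core of the sterol regulatory element, for CCAAT, the box bound by NF-Y, which acts beside SREBP, for the E-box CACGTG, and for the LXR-type direct repeat, which is GGTNA, then 5 bases of any kind, then GGTNA. The element core can share bases with a CCAAT box, which it did in none of the genes shown here. The element core was in 2 of 18 windows of sterol synthesis genes (11.1%), against 4.36% of all 32851 windows. A CCAAT box was in 14 of 18 such windows (77.8%), against 37.4% of all windows. The E-box was in 3 of 18 such windows (16.7%), against 7.15% of all windows. The direct repeat was in 0 of 18 such windows, in 1 of 9 windows of fatty acid genes and in 1 of 5 windows of LXR genes, against 0.718% of all windows. A match describes these letters in this window and is not evidence of binding.

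The stretches shown first hold the element core in genes whose transcripts were lower under actinonin. They are printed on the strand of the gene, 5′ to 3′, with the core in capitals. Positions count from the annotated start, with -1 as the base before it. Hmgcs1 makes HMG-CoA, its stretch is chr13:119690174-119690261 on the plus strand, positions -177 to -90, and its core is at -137 to -130. Msmo1 encodes a sterol methyl oxidase, its stretch is chr8:64733708-64733795 on the minus strand, positions -217 to -130, and its core is at -177 to -170. Srebf2 encodes the SREBP that acts mainly on sterol genes, its stretch is chr15:82147067-82147154 on the plus strand, positions -202 to -115, and its core is at -162 to -155. Each of the 3 stretches also holds 1 CCAAT box, which lies on the opposite strand, as attgg, in Hmgcs1 and Srebf2.
Hmgcs1: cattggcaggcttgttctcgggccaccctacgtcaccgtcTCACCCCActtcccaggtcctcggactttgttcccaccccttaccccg
Msmo1: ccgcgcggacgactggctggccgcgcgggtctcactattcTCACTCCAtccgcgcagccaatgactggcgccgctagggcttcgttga
Srebf2: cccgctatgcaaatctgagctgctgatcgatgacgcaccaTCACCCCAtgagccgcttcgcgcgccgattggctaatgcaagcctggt

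The stretches shown next hold the direct repeat, which lies on the opposite strand in each, so the capitals show its reverse complement. Their transcripts went different ways: Abca1 was higher than in carrier at 24 h and 72 h, Fasn was lower at all 4 times and Srebf1 was called at none. Abca1, a pump that loads cholesterol onto lipoproteins, is shown for chr4:53159908-53160002 on the minus strand, positions -107 to -13, with the repeat at -67 to -53. Fasn, the fatty acid synthase, is shown for chr11:120824718-120824797 on the minus strand, positions -250 to -171, with the repeat at -225 to -211. Srebf1, the SREBP gene linked mainly to fatty acid synthesis, is shown for chr11:60210599-60210693 on the minus strand, positions -222 to -128, with the repeat at -182 to -168.
Abca1: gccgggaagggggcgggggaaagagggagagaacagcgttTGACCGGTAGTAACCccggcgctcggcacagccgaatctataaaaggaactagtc
Fasn: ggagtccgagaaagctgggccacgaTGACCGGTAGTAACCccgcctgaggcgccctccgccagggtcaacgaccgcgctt
Srebf1: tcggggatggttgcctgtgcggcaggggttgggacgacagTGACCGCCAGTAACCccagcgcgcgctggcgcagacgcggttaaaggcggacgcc

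Transcripts of sterol synthesis fell from the first time measured and stayed low, those of fatty acid synthesis fell less, and the LXR genes split. Against carrier, 28 of 41 genes fell and 0 rose at 6 h, where 11.1% of all tested genes were called down and 13.7% up. At 24 h 32 fell and 2 rose (19.1% of all genes down and 21.2% up). At 48 h 36 fell and 1 rose (20.3% down and 21.5% up), and at 72 h 31 fell and 1 rose (22.6% down and 25.2% up). A call is an adjusted p under 0.05 from limma, two-sided, with Benjamini-Hochberg adjustment over all tested genes, and n = 4 per group. The median log2 change of the 41 genes was -0.30, -0.63, -0.88 and -0.68 at 6, 24, 48 and 72 h, while the median over all tested genes lay within 0.01 of 0 at each time. These comparisons share the same 4 carrier samples. In whole cultures, fewer cells with a transcript and less transcript per cell cannot be told apart. Where a called gene had other probes with signal, these had the same sign in 8 of 8 cases at 6 h, 11 of 11 at 24 h, 14 of 14 at 48 h and 9 of 9 at 72 h, and 6, 9, 11 and 8 of them also passed the threshold. The size was smaller by over 1.5 times in 2, 3, 4 and 3 cases, which were Fdft1 at all 4 times, Nsdhl and Mylip at 24 h and 72 h, Acly at 6 h and 48 h, and Acss2 and 1 of 2 Acaca probes at 48 h.

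By role, the 18 sterol synthesis genes fell in 18, 18, 18 and 17 cases at 6, 24, 48 and 72 h, with median log2 changes of -0.38, -0.95, -1.24 and -1.01. The 12 fatty acid genes fell in 8, 10, 12 and 9 cases, with medians of -0.30, -0.35, -0.67 and -0.29. None of these 30 genes rose at any time. Of the 5 LXR and efflux genes 0, 1, 2 and 2 fell and 0, 1, 1 and 1 rose, with medians of -0.05, -0.01, -0.01 and 0.06. Lists are given here by counts and medians, and no test between them was made. The 11 fibroblast markers, which are not lipid genes, fell in 3, 9, 10 and 8 cases and rose in 0, 0, 0 and 1, with medians of -0.19, -0.48, -0.91 and -0.39. Their part in the changes of the sterol and fatty acid genes was not tested. The 17 sterol genes, 8 fatty acid genes, Insig1 and Stard4 called down at all 4 times contrast with Insig2, Srebf1 and Nr1h2, which were called at none.

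**Figure D1:**
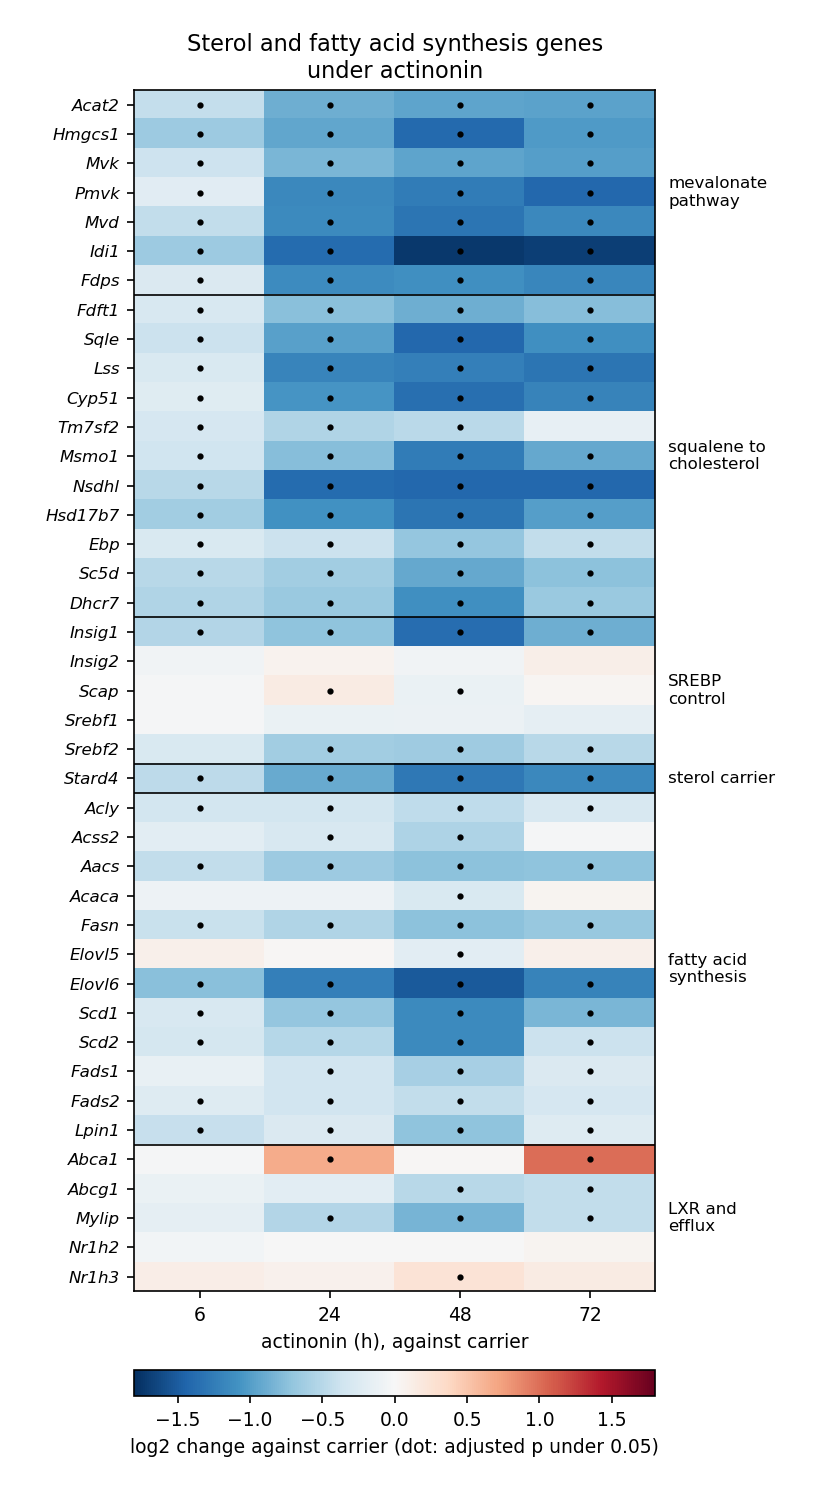
Log2 change of each of the 41 genes (rows, by role) at 6, 24, 48 and 72 h of actinonin against carrier (columns), from the limma fit with n = 4 per group. Blue is lower and red higher than carrier, and a dot marks an adjusted p under 0.05. The upper 18 rows are blue nearly throughout, Tm7sf2 at 72 h has no dot, and Abca1 stands out in red at 24 h and 72 h.

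**Figure D2:**
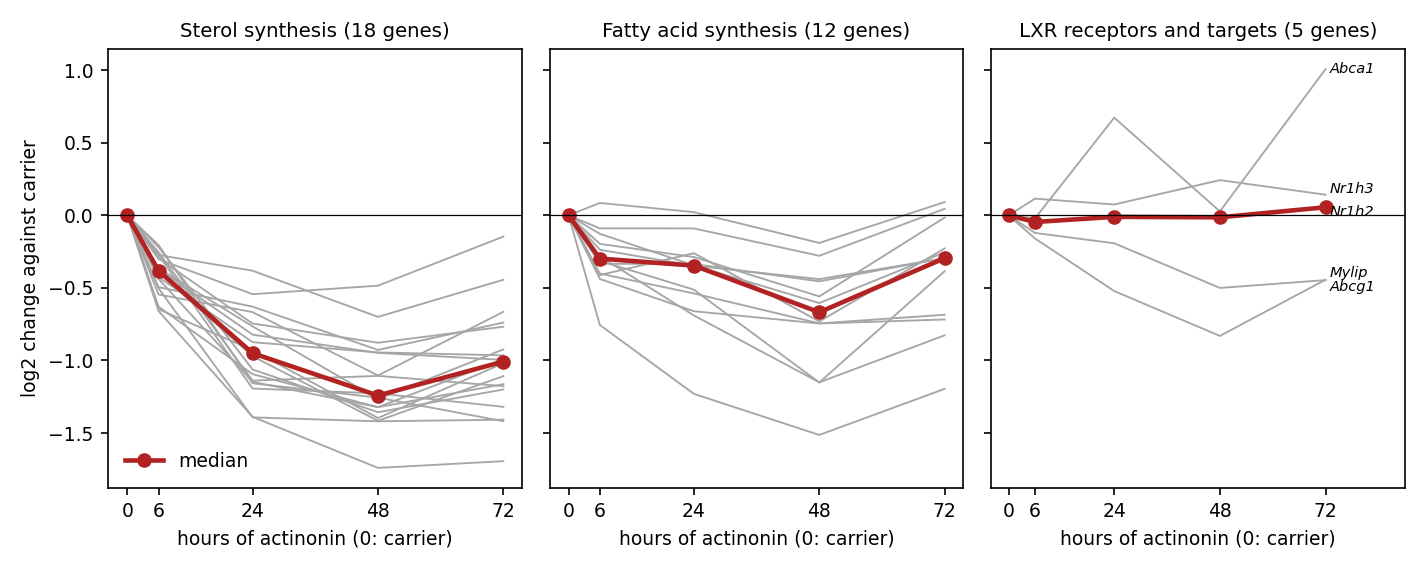
Log2 change against carrier (vertical axis) by hours of actinonin (horizontal axis, carrier at 0) for 18 sterol synthesis, 12 fatty acid synthesis and 5 LXR genes. Grey lines are genes and the red line is the median of each list. The sterol median reaches -1.24 and the fatty acid median -0.67 at 48 h, while the LXR lines spread to either side of 0.

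Within the mevalonate pathway, all 7 genes fell at all 4 times. Values below are log2 intensities of a gene's brightest probe after the fitted dye and slide terms were taken out, listed for the 2 Cy3 samples and then the 2 Cy5 samples. Probes differ in how well they bind, so levels are compared within a gene only. Idi1, the isomerase that makes the isoprene unit dimethylallyl diphosphate, read 13.63, 14.01, 13.82 and 13.82 in carrier samples, 13.04, 13.14, 13.34 and 13.05 at 6 h, 12.54, 12.30, 12.54 and 12.30 at 24 h, 12.08, 12.12, 12.06 and 12.02 at 48 h, and 12.17, 12.10, 12.15 and 12.03 at 72 h. Every actinonin sample lay below every carrier sample. Its log2 change was -0.66 ± 0.08 at 6 h, -1.39 ± 0.10 at 24 h, -1.74 ± 0.09 at 48 h and -1.69 ± 0.10 at 72 h (± standard error here and throughout; adjusted p = 4.07e-11 at 48 h in limma), which left 29.9% of the carrier level at 48 h. This was the largest fall among the 41 genes at 48 h and at 72 h.

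Pmvk, the phosphomevalonate kinase, read 13.61, 13.80, 13.64 and 13.63 in carrier samples, 13.43, 13.57, 13.42 and 13.39 at 6 h, 12.59, 12.43, 12.52 and 12.48 at 24 h, 12.36, 12.36, 12.44 and 12.47 at 48 h, and 12.15, 12.26, 12.24 and 12.33 at 72 h. Its groups did not overlap with carrier at any time, and its change of -0.21 ± 0.05 at 6 h was the smallest of the 18 sterol genes, against -1.16 ± 0.07 at 24 h and -1.42 ± 0.07 at 72 h. Fdps, the farnesyl diphosphate synthase, read 15.25, 15.42, 15.37 and 15.42 in carrier samples, 15.09, 15.11, 15.19 and 15.01 at 6 h, 14.33, 14.17, 14.18 and 14.20 at 24 h, 14.23, 14.24, 14.27 and 14.27 at 48 h, and 14.20, 14.20, 14.16 and 14.17 at 72 h. The 24, 48 and 72 h samples all lay between 14.16 and 14.33, about a log2 unit below carrier, with changes of -1.14, -1.11 and -1.18, after -0.25 ± 0.05 at 6 h. Both genes thus made most of their fall after 6 h. Between 6 h and 24 h, Pmvk changed by a further -0.95 ± 0.07 (adjusted p = 7.43e-09 in limma) and Fdps by -0.88 ± 0.06 (adjusted p = 6.85e-09 in limma).

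Mvk, the mevalonate kinase, read 13.78, 13.75, 13.72 and 13.78 in carrier samples, 13.40, 13.31, 13.48 and 13.36 at 6 h, 12.99, 12.87, 12.94 and 12.94 at 24 h, 12.82, 12.89, 12.76 and 12.77 at 48 h, and 12.76, 12.74, 12.80 and 12.76 at 72 h. Mvd, which decarboxylates mevalonate diphosphate, read 11.27, 11.23, 11.12 and 11.37 in carrier samples, 10.71, 10.88, 10.83 and 10.80 at 6 h, 10.23, 9.94, 10.08 and 10.13 at 24 h, 9.85, 9.94, 9.94 and 9.96 at 48 h, and 10.10, 10.16, 10.11 and 9.95 at 72 h. In both, each group at 24, 48 and 72 h lay below all 6 h samples, which in turn lay below all carrier samples. Mvk changed by -0.37, -0.82, -0.95 and -0.996 ± 0.05, and Mvd by -0.44, -1.15, -1.32 and -1.16 ± 0.08. Acat2, the cytosolic thiolase of the first step, changed by -0.43, -0.87, -0.94 and -0.96 ± 0.09.

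Hmgcs1, whose stretch with the element core is printed above, varied more within groups, with an SD of 0.449 in carrier samples. It read 13.89, 14.62, 14.97 and 14.47 in carrier samples, 13.88, 14.34, 13.46 and 13.69 at 6 h, 13.71, 13.48, 13.47 and 13.58 at 24 h, 12.98, 13.08, 13.24 and 13.07 at 48 h, and 13.47, 13.45, 13.45 and 13.50 at 72 h. At 6 h the highest sample, 14.34, lay above the lowest carrier sample, 13.89, so those groups overlapped, while all later samples lay below all carrier samples. Its changes were -0.65 ± 0.15 at 6 h (adjusted p = 0.00382 in limma), -0.93 ± 0.18 at 24 h, -1.40 ± 0.16 at 48 h and -1.02 ± 0.18 at 72 h.

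Of the 11 genes from squalene to cholesterol, 11 fell at 6, 24 and 48 h and 10 at 72 h. Nsdhl, a sterol dehydrogenase that removes a methyl group from the ring, read 11.46, 11.40, 11.44 and 11.72 in carrier samples, 10.91, 11.19, 10.92 and 10.97 at 6 h, 10.23, 10.01, 10.06 and 10.15 at 24 h, 10.15, 10.00, 10.24 and 9.95 at 48 h, and 10.13, 10.12, 10.06 and 10.08 at 72 h. The 24, 48 and 72 h samples lay together between 9.95 and 10.24, below all 6 h samples, and these lay below all carrier samples. Its changes were -0.50 ± 0.08, -1.39 ± 0.09, -1.42 ± 0.08 and -1.41 ± 0.09 (adjusted p = 9.77e-10 at 72 h in limma), and at 24 h it held 38.1% of the carrier level. A second Nsdhl probe changed less, by -0.41, -0.72, -0.998 and -0.68, and passed the threshold at all 4 times.

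Lss, the lanosterol synthase that closes the sterol rings, read 11.02, 11.12, 10.98 and 11.03 in carrier samples, 10.80, 10.78, 10.82 and 10.65 at 6 h, 10.02, 9.77, 9.84 and 9.75 at 24 h, 9.66, 9.77, 9.91 and 9.90 at 48 h, and 9.72, 9.69, 9.74 and 9.71 at 72 h. Cyp51, the lanosterol demethylase, read 10.81, 10.96, 10.91 and 10.99 in carrier samples, 10.58, 10.77, 10.70 and 10.67 at 6 h, 10.00, 9.69, 9.82 and 9.87 at 24 h, 9.68, 9.43, 9.62 and 9.47 at 48 h, and 9.76, 9.71, 9.72 and 9.63 at 72 h. Both moved little at 6 h (-0.27 ± 0.06 and -0.22 ± 0.07) and by more than a log2 unit at each later time, reaching -1.32 ± 0.07 for Lss at 72 h and -1.36 ± 0.07 for Cyp51 at 48 h. The 6 h call of Cyp51 (adjusted p = 0.0215 in limma) ended in 3 of the 20 fits that left out 1 sample.

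Hsd17b7, a reductase of the sterol ring, read 10.88, 10.95, 10.88 and 11.08 in carrier samples, 10.19, 10.37, 10.38 and 10.30 at 6 h, 9.97, 9.73, 9.77 and 9.93 at 24 h, 9.65, 9.61, 9.65 and 9.59 at 48 h, and 9.98, 10.04, 9.97 and 9.81 at 72 h. Its fall of -0.63 ± 0.06 at 6 h was the largest among these 11 genes at that time, and at 48 h it reached -1.32 ± 0.07. Fdft1, the squalene synthase at the branch towards sterols, read 12.64, 12.69, 12.57 and 12.79 in carrier samples, 12.31, 12.42, 12.43 and 12.27 at 6 h, 11.97, 11.87, 11.89 and 11.94 at 24 h, 11.82, 11.73, 11.81 and 11.79 at 48 h, and 11.92, 11.90, 11.94 and 11.82 at 72 h. Its changes were -0.30, -0.75, -0.88 and -0.77 ± 0.06, and no treated sample overlapped the carrier samples in either gene. A second Fdft1 probe changed by only -0.05, -0.17, -0.19 and -0.20 and was called at no time (adjusted p = 0.186 at 72 h in limma), so the call for Fdft1 rests on its brightest probe.

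The other 6 genes of this branch were more varied. Sqle, the squalene epoxidase, changed by -0.39, -0.97, -1.42 and -1.11 ± 0.09 over the 4 times. Msmo1, whose stretch with the element core is printed above, changed by -0.37, -0.77, -1.27 and -0.92 ± 0.10. Dhcr7, which makes cholesterol from its last precursor in one route, changed by -0.55, -0.67, -1.10 and -0.66 ± 0.13. In all 3, the 48 h value was the lowest, as it also was in Sc5d and Ebp. Sc5d, a sterol desaturase, changed by -0.49, -0.63, -0.93 and -0.74 ± 0.11. Ebp, a sterol isomerase, changed by -0.27, -0.38, -0.70 and -0.44 ± 0.08.

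Tm7sf2, a sterol reductase, was the one sterol synthesis gene not called at all 4 times. It read 11.34, 11.45, 11.45 and 11.49 in carrier samples, 11.07, 11.13, 11.22 and 11.13 at 6 h, 10.98, 10.77, 10.85 and 10.97 at 24 h, 10.94, 11.01, 11.01 and 10.84 at 48 h, and 11.40, 11.32, 11.22 and 11.21 at 72 h. The 72 h samples, at 11.21 to 11.40, overlapped the carrier samples, at 11.34 to 11.49. Its changes were -0.30 ± 0.06, -0.54 ± 0.07, -0.48 ± 0.06 and -0.15 ± 0.07, the last with adjusted p = 0.108 in limma and a 95% interval of -0.30 to 0.01. From 24 h to 72 h it rose by 0.40 ± 0.06. In the same samples it was higher on 4 of the 4 arrays those times shared.

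**Figure D3:**
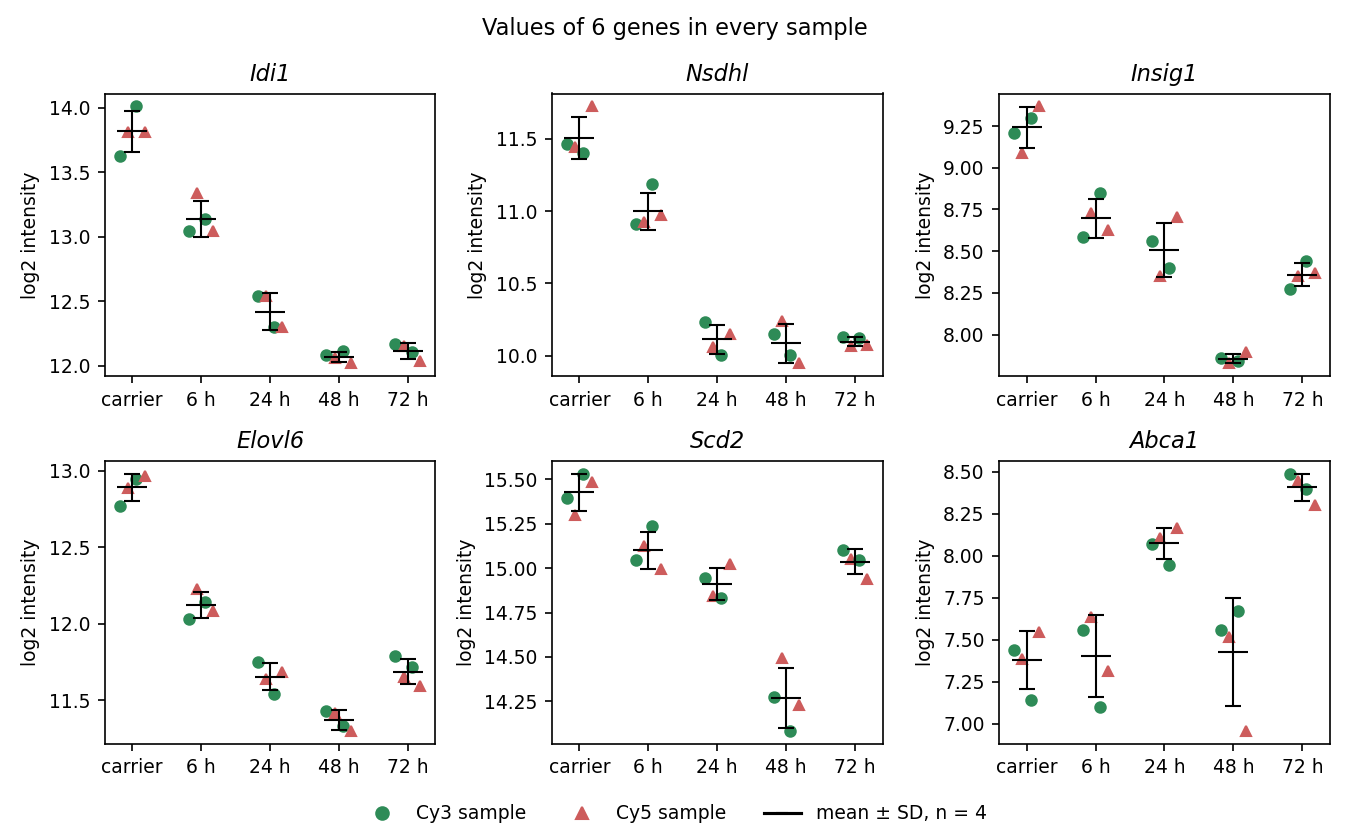
Log2 intensity (vertical axes, one scale per gene) of 6 genes in each of the 20 samples, by group (horizontal axes), with Cy3 samples as green circles, Cy5 samples as red triangles and bars for the mean ± SD (n = 4). Idi1 and Nsdhl stay low from 24 h on, Insig1, Elovl6 and Scd2 are lowest at 48 h, and Abca1 is highest at 72 h.

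Among the genes that control SREBP, Insig1 moved most. INSIG1 retains SCAP in the endoplasmic reticulum, and Insig1 is itself a well known SREBP target. It read 9.21, 9.30, 9.09 and 9.37 in carrier samples, 8.58, 8.85, 8.73 and 8.62 at 6 h, 8.56, 8.40, 8.35 and 8.71 at 24 h, 7.86, 7.84, 7.83 and 7.90 at 48 h, and 8.27, 8.44, 8.35 and 8.37 at 72 h. No actinonin sample overlapped the carrier samples, and the 48 h samples, at 7.83 to 7.90, lay below all others. Its changes were -0.52 ± 0.07, -0.73 ± 0.09, -1.37 ± 0.08 and -0.87 ± 0.09 (adjusted p = 2.09e-10 at 48 h in limma), and it held 38.6% of the carrier level at 48 h.

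Srebf2, whose promoter stretch is printed above, read 11.43, 11.44, 11.48 and 11.63 in carrier samples, 11.16, 11.36, 11.14 and 11.18 at 6 h, 11.02, 10.91, 10.42 and 11.09 at 24 h, 10.87, 10.72, 11.01 and 10.82 at 48 h, and 10.97, 10.93, 10.98 and 11.05 at 72 h. All actinonin samples lay below all carrier samples, and 1 sample of 24 h, at 10.42, lay below the other 3. The change of -0.28 ± 0.10 at 6 h missed the threshold (adjusted p = 0.0577 in limma, 95% interval -0.49 to -0.06), and those of -0.63 ± 0.12, -0.63 ± 0.11 and -0.51 ± 0.12 passed it. A second Srebf2 probe changed by -0.24 at 6 h and passed the threshold (adjusted p = 0.00839 in limma).

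The other SREBP precursor gene went with no call. Srebf1 read 8.04, 7.88, 7.89 and 8.12 in carrier samples, 7.96, 8.07, 7.90 and 7.95 at 6 h, 8.03, 7.76, 7.77 and 7.93 at 24 h, 7.87, 7.91, 7.99 and 7.75 at 48 h, and 7.79, 7.77, 7.85 and 7.93 at 72 h. The groups overlapped at every time, with changes of -0.02, -0.12, -0.11 and -0.15 ± 0.08 (95% interval at 72 h -0.33 to 0.02). Insig2, the second retention gene, read 11.92, 12.09, 11.96 and 11.99 in carrier samples, 11.98, 11.86, 12.09 and 11.78 at 6 h, 12.09, 12.01, 12.05 and 12.09 at 24 h, 11.96, 11.89, 11.99 and 11.86 at 48 h, and 12.11, 12.07, 12.05 and 12.13 at 72 h. Its groups also overlapped carrier at each time, and its largest change was 0.10 ± 0.07 at 72 h (adjusted p = 0.260 in limma).

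Scap, the escort gene, crossed the threshold both ways by small amounts. It read 13.38, 13.47, 13.48 and 13.41 in carrier samples, 13.37, 13.43, 13.40 and 13.44 at 6 h, 13.56, 13.55, 13.64 and 13.54 at 24 h, 13.35, 13.25, 13.34 and 13.32 at 48 h, and 13.53, 13.51, 13.43 and 13.41 at 72 h. It was higher by 0.14 ± 0.05 at 24 h (adjusted p = 0.0311 in limma) and changed by -0.12 ± 0.04 at 48 h (adjusted p = 0.0415 in limma). The 24 h samples all lay above and the 48 h samples all below the carrier samples. Both calls were close to the threshold, and the 24 h call ended in 5 of 20 fits that left out 1 sample and the 48 h call in 8 of 20. Stard4, a carrier that moves sterol between membranes and a known SREBP target, read 12.48, 12.87, 12.60 and 12.57 in carrier samples, 12.12, 12.01, 12.45 and 11.98 at 6 h, 11.78, 11.73, 11.62 and 11.74 at 24 h, 11.31, 11.34, 11.30 and 11.39 at 48 h, and 11.46, 11.45, 11.49 and 11.42 at 72 h. It changed by -0.47 ± 0.09, -0.90 ± 0.10, -1.29 ± 0.09 and -1.17 ± 0.10, and all its actinonin samples lay below all carrier samples.

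Fatty acid genes fell most at the elongase Elovl6, which lengthens palmitate to stearate. Elovl6 read 12.77, 12.94, 12.88 and 12.97 in carrier samples, 12.03, 12.14, 12.23 and 12.09 at 6 h, 11.75, 11.54, 11.64 and 11.69 at 24 h, 11.43, 11.33, 11.42 and 11.30 at 48 h, and 11.79, 11.72, 11.65 and 11.59 at 72 h. The 4 carrier samples lay above all others, and the 48 h samples, at 11.30 to 11.43, below all others. Its changes were -0.76 ± 0.06, -1.23 ± 0.07, -1.51 ± 0.06 and -1.20 ± 0.07 (adjusted p = 6.81e-12 at 48 h in limma), so that it held 35.0% of the carrier level at 48 h. At 6 h this was the largest fall of the 41 genes.

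The desaturases Scd1 and Scd2, which make monounsaturated fatty acids, had a low point at 48 h. Scd1 read 12.44, 12.31, 12.23 and 12.44 in carrier samples, 12.01, 12.16, 12.02 and 12.08 at 6 h, 11.70, 11.59, 11.66 and 11.71 at 24 h, 11.27, 11.10, 11.31 and 11.13 at 48 h, and 11.55, 11.50, 11.53 and 11.53 at 72 h. Scd2 read 15.40, 15.53, 15.30 and 15.49 in carrier samples, 15.04, 15.24, 15.13 and 15.00 at 6 h, 14.94, 14.83, 14.84 and 15.02 at 24 h, 14.27, 14.08, 14.49 and 14.23 at 48 h, and 15.10, 15.05, 15.05 and 14.94 at 72 h. In Scd2 the 48 h samples, at 14.08 to 14.49, lay below all others, while the 72 h samples overlapped those of 6 h and 24 h. Scd1 changed by -0.28 ± 0.06, -0.69 ± 0.07, -1.15 ± 0.06 and -0.83 ± 0.07. Scd2 changed by -0.31 ± 0.08, -0.51 ± 0.09, -1.15 ± 0.08 and -0.38 ± 0.09. The 2 genes are close paralogs, and the files do not show how far each probe binds the other transcript.

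Fasn, the synthase whose promoter stretch with the direct repeat is printed above, read 9.82, 9.98, 9.92 and 9.87 in carrier samples, 9.41, 9.55, 9.43 and 9.46 at 6 h, 9.40, 9.26, 9.36 and 9.35 at 24 h, 9.23, 8.97, 9.08 and 9.27 at 48 h, and 9.15, 9.30, 9.18 and 9.16 at 72 h. Aacs, which activates acetoacetate for lipid synthesis, read 12.97, 12.94, 12.95 and 13.20 in carrier samples, 12.50, 12.75, 12.46 and 12.49 at 6 h, 12.40, 12.30, 12.28 and 12.38 at 24 h, 12.32, 12.15, 12.28 and 12.27 at 48 h, and 12.21, 12.35, 12.30 and 12.28 at 72 h. Acly, which makes cytosolic acetyl-CoA from citrate, read 14.55, 14.58, 14.45 and 14.49 in carrier samples, 14.16, 14.17, 14.22 and 14.15 at 6 h, 14.21, 14.15, 14.16 and 14.19 at 24 h, 14.08, 13.99, 14.09 and 14.08 at 48 h, and 14.16, 14.26, 14.23 and 14.23 at 72 h. All actinonin samples of these 3 genes lay below all their carrier samples. Fasn changed by -0.40, -0.54, -0.74 and -0.68 ± 0.07, and Aacs by -0.44, -0.66, -0.75 and -0.72 ± 0.08. Acly moved less, by -0.33, -0.34, -0.45 and -0.29 ± 0.05.

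The desaturase genes of polyunsaturated fatty acids, Fads1 and Fads2, were lower by smaller amounts. Fads2 changed by -0.24, -0.35, -0.44 and -0.30 ± 0.05, called at each time. Fads1 changed by -0.13 ± 0.05 at 6 h, which missed the threshold (adjusted p = 0.0793 in limma), and then by -0.35, -0.60 and -0.25 ± 0.06. Lpin1, a phosphatidate phosphatase, changed by -0.41, -0.26, -0.73 and -0.23 ± 0.09, and its 72 h call ended in 6 of 20 fits that left out 1 sample.

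Acaca, Acss2 and Elovl5 were called at fewer times. Acaca, the acetyl-CoA carboxylase of the committed step, passed the threshold at 48 h with -0.28 ± 0.05, against -0.09 ± 0.04, -0.09 ± 0.05 and 0.04 ± 0.05 at the other times. Acss2, which makes acetyl-CoA from acetate, was called at 24 h (-0.29 ± 0.11) and 48 h (-0.56 ± 0.09), and its 24 h call ended in 8 of 20 fits that left out 1 sample. A second Acss2 probe changed by -0.20 at 6 h and passed the threshold there (adjusted p = 0.0278 in limma). Elovl5, the elongase of polyunsaturated fatty acids, was the one gene of this list with positive changes at 6, 24 and 72 h. It read 12.27, 12.21, 12.07 and 12.19 in carrier samples, 12.30, 12.23, 12.33 and 12.21 at 6 h, 12.27, 12.11, 12.17 and 12.26 at 24 h, 12.10, 11.87, 12.09 and 11.90 at 48 h, and 12.21, 12.27, 12.37 and 12.25 at 72 h. The groups overlapped carrier at each time, with changes of 0.09, 0.02, -0.19 ± 0.06 and 0.09, and the call at 48 h (adjusted p = 0.0184 in limma) ended in 4 of 20 fits that left out 1 sample.

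The LXR targets did not move together. Abca1, with the direct repeat printed above, read 7.44, 7.14, 7.38 and 7.55 in carrier samples, 7.56, 7.10, 7.64 and 7.31 at 6 h, 8.07, 7.95, 8.11 and 8.17 at 24 h, 7.56, 7.68, 7.52 and 6.96 at 48 h, and 8.49, 8.40, 8.45 and 8.30 at 72 h. The 24 h and 72 h samples lay above all carrier samples and the 6 h and 48 h samples overlapped them. Its changes were -0.02 ± 0.12, 0.67 ± 0.15, 0.03 ± 0.13 and 1.01 ± 0.15 (adjusted p = 0.00116 at 24 h and adjusted p = 1.56e-05 at 72 h in limma).

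Abca1 also had the largest slide difference of the 41 genes, -1.11 for slide 2 over slide 1 on the log2 scale. Before that term was taken out, the 72 h samples read 7.90, 7.81, 7.93 and 7.78, the carrier samples of slide 2 read 6.55 and 7.03, and those of slide 1 read 7.96 and 7.97. With the 20 samples fitted without a slide term, the change was 0.22 at 24 h (adjusted p = 0.604 in limma) and 0.55 at 72 h (adjusted p = 0.104 in limma). Among the samples of slide 2 alone it was 1.01 at 72 h (adjusted p = 6.48e-05 in limma). The 24 h and 72 h samples in which it was higher also shared their 4 arrays, apart from all carrier samples. Slide differences were also large for Acss2 (-0.85), Tm7sf2 (-0.84), Hmgcs1 (0.76), Lpin1 (-0.65) and Mylip (-0.52). The values and changes of these genes likewise depend on the fitted slide term.

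Mylip, the LXR target that marks lipoprotein receptors for degradation, went the other way. It read 11.49, 11.55, 11.51 and 11.61 in carrier samples, 11.31, 11.22, 11.62 and 11.36 at 6 h, 11.10, 10.96, 10.96 and 11.03 at 24 h, 10.69, 10.77, 10.70 and 10.66 at 48 h, and 11.29, 11.08, 11.05 and 10.95 at 72 h. The 24, 48 and 72 h samples lay below all carrier samples, with changes of -0.52 ± 0.09, -0.83 ± 0.08 and -0.44 ± 0.09 (adjusted p = 1.76e-07 at 48 h in limma), and the 6 h change of -0.16 ± 0.08 missed the threshold (adjusted p = 0.144, limma). A second Mylip probe changed by -0.19 at 6 h and passed it (adjusted p = 0.00479 in limma). Abcg1, a second sterol pump, read 7.29, 7.12, 7.54 and 7.49 in carrier samples, 7.32, 7.22, 7.19 and 7.31 at 6 h, 7.33, 6.93, 7.29 and 7.16 at 24 h, 7.08, 6.87, 6.94 and 6.59 at 48 h, and 6.98, 7.04, 6.87 and 6.80 at 72 h. It changed by -0.50 ± 0.10 at 48 h and by -0.45 ± 0.12 at 72 h, its groups not overlapping carrier at those times. Abcg1 was well above background in 18 of 20 samples, and the other 40 genes in all 20.

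The LXR receptor genes moved little. Nr1h3, which encodes LXR alpha, read 7.21, 6.93, 6.84 and 7.01 in carrier samples, 7.16, 7.05, 7.12 and 7.13 at 6 h, 7.04, 6.98, 7.20 and 7.08 at 24 h, 7.06, 7.38, 7.08 and 7.45 at 48 h, and 7.24, 7.09, 7.08 and 7.15 at 72 h. Its change of 0.24 ± 0.09 at 48 h passed the threshold (adjusted p = 0.0377 in limma) although the groups overlapped, and without the brightest array it was 0.11 (adjusted p = 0.482 in limma). Nr1h2, which encodes LXR beta, changed by -0.05, -0.01, -0.01 and 0.06 ± 0.05, with a 95% interval of -0.06 to 0.17 at 72 h.

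The order of events was read from the steps between times. Between 6 h and 24 h, 21 of 41 genes fell further and 2 rose, where 16.4% of all genes fell and 16.4% rose. Of the 18 sterol genes 14 fell in this step, against 4 of 12 fatty acid genes. The 2 that rose were Abca1 at 0.69 ± 0.15 and Scap at 0.16 ± 0.05. The largest steps were those of Pmvk (-0.95), Lss (-0.92), Nsdhl (-0.89) and Fdps (-0.88). The second Nsdhl probe changed by -0.32 in this step.

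Between 24 h and 48 h, 20 of 41 genes fell and 0 rose, where 6.36% of all genes fell and 5.77% rose. Without the first Cy3 sample of 24 h, 13 fell, where 4.37% of all genes did. The 20 genes that fell with all samples fitted were 7 of 18 sterol genes, 8 of 12 fatty acid genes, Insig1, Scap, Stard4, Abca1 and Mylip. Insig1 changed by -0.65 ± 0.08, Abca1 by -0.65 ± 0.13 and Scd2 by -0.64 ± 0.08 in this step. Between 48 h and 72 h, 0 of 41 fell and 20 rose, where 10.3% of all genes fell and 12.9% rose. These 20 included 6 of 18 sterol genes, all 6 from squalene to cholesterol and none of the mevalonate pathway, and 10 of 12 fatty acid genes. Hmgcs1, of the mevalonate pathway, also rose, by 0.38, but was not called. Its 72 h samples, from 13.45 up, lay above its 48 h samples, which reached 13.24. Scd2 rose by 0.77 ± 0.08 (adjusted p = 8.49e-06 in limma), Acss2 by 0.54 ± 0.10, Insig1 by 0.50 ± 0.08 and Lpin1 by 0.50 ± 0.08. A second Acss2 probe rose by 0.15 and was not called (adjusted p = 0.139 in limma). Other probes of called genes had the same sign in 5 of 5 cases from 24 h to 48 h, and 2 passed the threshold. From 48 h to 72 h the sign was the same in 7 of 7, and 3 passed. These 2 steps share the 48 h samples, so a low value there enters both. The 48 h group was the lowest of the 5 for 31 of 41 genes, which included 12 of 12 fatty acid genes and 12 of 18 sterol genes, while 5 sterol genes were lowest at 72 h and 1 at 24 h. The share of all tested genes that were lowest at 48 h was not counted, so a low point there is not shown to be particular to these genes. Of the 11 fibroblast markers, 6 fell and 0 rose between 24 h and 48 h, and 0 fell and 8 rose between 48 h and 72 h.

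No 48 h sample shared an array with a 24 h or 72 h sample, so that these steps compare arrays as well as times. Without scaling between arrays 7 genes fell from 24 h to 48 h, where 1.01% of all genes did, and 13 rose from 48 h to 72 h, where 5.13% did. Without a slide term 8 fell, where 1.95% of all genes did, and 11 rose, where 6.38% did. Within slide 2 alone, 10 of 18 sterol and 9 of 12 fatty acid genes fell in the first step, where 8.50% of all genes did. In the second, 8 sterol and 10 fatty acid genes rose, where 15.0% of all genes did, and 1 sterol gene fell.

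The 24 h and 72 h samples shared arrays, which allowed a comparison within them, chosen after seeing the data. At 72 h against 24 h, 4 of 41 genes fell and 4 rose, where 9.89% of all genes fell and 10.5% rose. Both counts were thus near the shares of all genes. Those that fell were Idi1 (-0.31 ± 0.08), Pmvk (-0.26 ± 0.05), Mvk (-0.17 ± 0.04) and Stard4 (-0.26 ± 0.08), each lower on all 4 shared arrays. Those that rose were Tm7sf2 (0.40 ± 0.06), Abca1 (0.33 ± 0.11), Acss2 (0.27 ± 0.08) and Acaca (0.14 ± 0.04), each higher on all 4. The array counts come from the same samples as the calls and are no separate support. Genes that were not called also kept their direction on all 4 arrays, among them Sqle and Lss (lower) and Scd2 and Fads1 (higher). Insig1 changed by -0.15 ± 0.07 and Scd2 by 0.13 ± 0.07, neither past the threshold.

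The early response could be read on either slide, since each slide held 2 samples of 6 h and 2 carrier samples. At 6 h, 37 of 41 genes were lower than carrier on both slides, and these included 18 of 18 sterol genes and 11 of 12 fatty acid genes. The sterol median was -0.25 on slide 1 and -0.53 on slide 2, and the fatty acid median was -0.24 and -0.35. The slide 2 values come from a fit of all samples of that slide. The 48 h samples, which shared arrays with its carrier and 6 h samples, therefore also enter them. With the 4 samples of slide 1 fitted alone in limma, 0 of 41 genes passed the threshold and 12 were lower at an unadjusted p under 0.05, while of all 24234 genes in that fit 0 were called down and 15 up. For all tested genes, the share lower on both slides and the share with an unadjusted p under 0.05 were not counted.

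**Figure D4:**
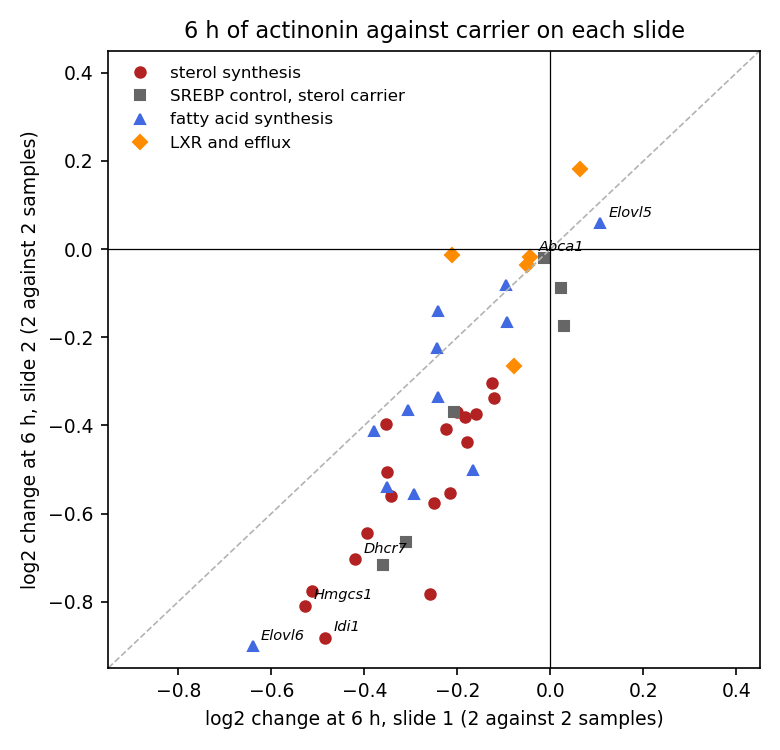
Log2 change at 6 h of actinonin against carrier on slide 1 (horizontal axis) and slide 2 (vertical axis), for the 41 genes by role. Each slide held 2 samples of 6 h and 2 carrier samples. The slide 2 values come from a fit of all samples of that slide, so the 48 h samples on the same arrays also enter them. The dashed line marks equal change. All 18 sterol genes lie at the lower left, and most lie below the dashed line.

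Neighbouring genes of lipid metabolism, taken from lists of other enzymes, did not fall in the same proportion. For all lists given here, the shares of all tested genes to set beside the counts are as follows. At 6, 24, 48 and 72 h, 11.1%, 19.1%, 20.3% and 22.6% of all genes fell and 13.7%, 21.2%, 21.5% and 25.2% rose. Of 19 genes of isoprenoid branches, redox partners and sterol trafficking 5, 10, 10 and 8 fell and 4, 5, 2 and 5 rose at the 4 times. Tmem97, a sterol-linked membrane protein, changed by -0.21, -1.04, -1.17 and -1.09 ± 0.07. Vldlr, a lipoprotein receptor, rose by 1.57, 1.71, 1.88 and 2.28 ± 0.11 (adjusted p = 2.06e-11 at 72 h in limma). Among 6 tested genes of SREBP processing and degradation 2 fell at each time and 1, 2, 1 and 4 rose. Mbtps2, a protease that releases SREBP, changed by 0.14, 0.48, 0.38 and 0.62 ± 0.08, the first of these short of the threshold.

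Of 23 further tested genes of fatty acid synthesis and activation 2, 5, 6 and 2 fell and 9, 7, 7 and 10 rose. Acsl3, an acyl-CoA synthetase, fell from 24 h on with changes of -0.60, -0.82 and -0.56 ± 0.09, and Elovl7, an elongase, rose at each time by 0.44, 0.54, 0.61 and 0.56 ± 0.08. Of 13 glycerolipid and droplet genes 2, 3, 3 and 3 fell and 2, 5, 5 and 5 rose. The share that fell, 15.4% at 6 h and 23.1% at each later time, was near that of all genes. The share that rose was 15.4% at 6 h and 38.5% at each later time. Dgat2, which makes triglyceride, rose by 0.74, 0.78, 0.76 and 1.09 ± 0.06. Mgll, a lipase, changed by -1.05, -0.79 and -1.27 ± 0.13 from 24 h on.

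Of 11 partners and further targets of LXR 4, 5, 5 and 4 fell and 3, 2, 3 and 3 rose. Lpcat3, an LXR target that remodels phospholipids, fell at each time with changes of -0.43, -0.30, -0.73 and -0.28 ± 0.07. Ncoa1, a receptor coactivator, rose by 0.40, 0.94, 0.95 and 1.21 ± 0.08. Fatty acid oxidation, the opposite route to synthesis, had 6, 4, 5 and 3 of 15 genes lower and 0, 4, 3 and 6 higher. As shares, 40%, 26.7%, 33.3% and 20% were lower and 0%, 26.7%, 20% and 40% higher. Median log2 changes of these 6 lists lay between -0.23 and 0.26 over the 4 times, against -0.38 to -1.24 for the sterol synthesis genes. The fibroblast markers had medians from -0.19 at 6 h to -0.91 at 48 h.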

How the data were processed

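Total RNA was labelled with Cy3 or Cy5 and hybridised to Agilent arrays, 1 sample per channel. The deposited intensity values are, per the file headers, raw medians over the pixels of a spot and over the background around it, and further columns mark spots as well above background, saturated or outlying. The authors' deposited series matrix, used as an alternative, holds log2 intensity per spot. R 2.15 and limma are named in the submitters' processing notes, without the steps taken.

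With limma 3.58.1 in R 4.3.3, background was taken off by normexp with an offset of 50, channels were aligned within each array by loess, and arrays were aligned by quantiles of their average intensity. Median signals replaced the mean signals of the plan. These steps hide any shift that all genes share. Control spots (3671 of 62976) and outlying spots were left out. RefSeq (GRCm38.p6) named 26582 of 28116 probes with an accession. Probes needed signal well above background in 4 or more of the 20 samples, and the brightest one represented its gene, which gave 24250 tested genes, 14242 with a symbol.

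Each gene was fitted with limma over 20 samples, with group, dye and slide as fixed terms and the array as a random block (correlation 0.250), then eBayes, with Benjamini-Hochberg adjustment over all genes. The dye and slide terms were called for 15 and 21 of the 41 genes, and slide and the version of the image extraction software cannot be told apart. The labels call the samples independent without saying how the cultures were started, so p-values rest on the spread among these samples alone, and the number of arrays limits the precision. Replicate labels, which join a number and a dye, showed no pairing of the samples. Deviations of samples from different groups with the same label correlated above 0.1 in 1 of 40 pairs (median -0.04). For samples on 1 array this held in 10 of 10 pairs (median 0.44). Samples of the same number in different dyes were not compared as a set. The fit was tested on simulated data of the same layout.

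The genes and lists were chosen with earlier results of these data known. All 41 genes may be named. Values in every sample were printed for genes with one of the 3 smallest adjusted p of their role in any comparison with carrier and for genes that went against their list, and 2 more (Hmgcs1, Tm7sf2) were added after their values were seen. From the lists of other genes, up to 2 called genes per direction and comparison could be named. Figures were drawn with matplotlib 3.10.9.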

Additional observations from a re-analysis of the deposited data

Results flagged for a closer look

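In 7 of the 205 groups formed by 1 gene and 1 set of 4 samples, a single sample stood so far from the other 3 that its gap took a larger share of the group's range than the 95% critical value of Dixon's test allows. Chance flags about 1 in 20 such groups, so this number gives no pattern. Values are log2 intensities with dye and slide terms taken out. The sterol reductase gene Dhcr7 read 9.90 in 1 sample of 6 h, above 9.59 to 9.64 in the others. Acly read 14.22 in 1 sample of 6 h, above 14.15 to 14.17 in the others, and 13.99 in 1 sample of 48 h, below 14.08 to 14.09. Aacs read 12.75 in 1 sample of 6 h, above 12.46 to 12.50 in the others, and 13.20 in 1 carrier sample, above 12.94 to 12.97. Fads2 read 8.46 in 1 sample of 24 h, above 8.36 to 8.37 in the others. Lpin1 read 9.84 in 1 carrier sample, below 10.08 to 10.10 in the others. The Dhcr7 and Aacs values of 6 h came from the same sample of slide 1. Except for Fads2 at 24 h, whose samples shared arrays with 72 h, these samples lay on arrays with carrier, 6 h or 48 h samples.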

How the results depend on the processing

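Directions of the 41 genes turned in none of the settings run where the main value had passed the threshold. The counts of genes called down against carrier stayed within 1.5 times the main counts in all settings, with 1 exception: with slide 1 alone 0 of 41 were called at 6 h, against 28. That fit has 4 samples and called 0 of all genes down and 15 up. Counts called up were small and moved more. At 24 h 2 were called up, and 1 without scaling between arrays, without the filter on dim probes, without the slide term, without the dye term, with the replicate block or with only the compared groups in the fit. At 48 h 1 was called up, and 0 without the filter, the slide term, the dye term or the brightest array, with the array as a fixed term or with only the compared groups. At 72 h 1 was called up, and 0 without the slide term. From 6 h to 24 h 2 rose, and 1 without scaling, without the slide term or with only the compared groups. From 24 h to 48 h 20 fell, against 7 without scaling and 8 without the slide term, where the share of all genes called down was also lower, at 1.01% and 1.95% against 6.36%. From 48 h to 72 h 20 rose, against 13 without scaling and 11 without the slide term (5.13% and 6.38% of all genes, against 12.9%), and 0 fell, against 1 with quantile normalization, with the authors' series matrix, within slide 2 or with only the compared groups. The cause was not tested. Leaving out 1 sample at a time gave 26 to 32, 30 to 32, 34 to 36 and 30 to 32 genes down at 6, 24, 48 and 72 h. It gave 0, 1 to 2, 0 to 1 and 1 genes up at those times, 18 to 22 down and 1 to 3 up from 6 h to 24 h, 13 to 22 down from 24 h to 48 h (13 without the 24 h sample 1 in Cy3), and 0 to 1 down and 17 to 21 up from 48 h to 72 h. The array as a fixed term could not be fitted for 24 h and 72 h. With it, 19 genes were called down at 6 h and 34 at 48 h. That fit called down 4.20% of all genes at 6 h and 15.9% at 48 h, against 11.1% and 20.3% in the main fit. With the replicate block, whose labels showed no pairing, 29, 32, 36 and 30 genes were called down at the 4 times. Of all genes, 11.5%, 18.5%, 20.8% and 22.3% were. Over all 7 comparisons 6 calls of single genes ended, among them Scap at 24 h, and 1 was gained, Srebf2 at 6 h.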
